A study of Mus musculus with 17 samples.

Results

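The 42 genes described here make cholesterol and fatty acids, or move cholesterol within and out of the cell, in mouse macrophages and osteoclast precursors. They were chosen by name for their place in these pathways and mapped by symbol to the Ensembl identifiers of the deposited tables, where all 42 were found among 41388 genes. They comprise 19 genes of sterol synthesis, of which 8 lead from acetyl-CoA through mevalonate to squalene and 11 from squalene to cholesterol. The others are 5 genes of the SREBP transcription factors and their control, 2 LXR receptors, 4 efflux genes and LXR targets, 5 genes of lysosomal release and storage, and 7 genes of fatty acid synthesis. All 42 passed the filter on low counts in each comparison.

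Cells keep their membrane cholesterol within narrow limits through opposed transcription factors. When sterol is scarce in the endoplasmic reticulum, Scap carries SREBP2 and SREBP1, the products of Srebf2 and Srebf1, to the Golgi, where they are cleaved and released to switch on sterol and fatty acid synthesis, and Insig1 and Insig2 hold Scap back when sterol is plentiful. Oxidised sterols activate the LXR receptors Nr1h3 (LXRα) and Nr1h2 (LXRβ), which switch on the exporters Abca1 and Abcg1, apolipoprotein E and Mylip, a ubiquitin ligase that lowers uptake of lipoprotein. Macrophages take in much cholesterol with the cells they engulf, and osteoclasts, which form by fusion, are known to need cholesterol for survival and for their membrane domains.

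The libraries are oligo-dT RNA-seq of bone marrow macrophages (BMMs), grown in M-CSF, and of osteoclast precursors (preOCs, labelled OC), which also received RANKL at 100 ng/ml for 24 h. The question was how loss of Bap1, a deubiquitinase that removes ubiquitin from histone H2A, alters these cells. Bap1LysM mice carry 2 floxed Bap1 alleles and Cre recombinase in the lysozyme M gene, Lyz2, a driver active in macrophages and also in neutrophils. The study's methods give the Cre as +/-, a genotype with 1 Lyz2 allele free of Cre. Bap1flox littermates carry the floxed alleles without Cre, so that all cells share these alleles. The preOC cultures came from 20-week-old males, and the age of the mice behind the BMM libraries was not given in the sources used here. There are 3 BMM libraries of each genotype, 6 Bap1flox preOC libraries and 5 Bap1LysM preOC libraries numbered 1, 2, 4, 5 and 6. Replicates 1 to 3 and replicates 4 to 6 of the preOCs carry names of different form, and the preOC comparison is therefore also given within each of these library sets.

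Library totals ran from 37967542 to 61369441 counts, and mitochondrially encoded genes took 0.481% to 1.074% of them for replicates numbered 1 to 3 and 2.364% to 5.264% for those numbered 4 to 6. Values below are TMM-scaled CPM, that is, counts relative to the library total after a correction for composition, unless stated otherwise. Bap1 itself differed by -0.22 ± 0.10 (log2 fold change ± SE) in preOCs and by -0.11 ± 0.07 in BMMs, neither past the threshold, and counts over the whole gene do not separate the deleted exons from the rest. Lyz2, where the Cre sits, was at 0.152% to 0.436% of the Bap1flox mean in 4 Bap1LysM preOC libraries and at 75.1% in the library labelled Bap1LysM preOC 1. Among the BMMs, Bap1LysM libraries 2 and 3 held 0.173% and 0.146% and library 1 held 42.8%. The libraries labelled Bap1LysM 1 and the other Bap1LysM libraries thus differ from each other at the gene that carries the Cre, and which of them hold the stated +/- genotype was not tested. Results are given with and without the libraries labelled 1 where they change. Of the markers of the labelled cell types, all 10 osteoclast markers rose with RANKL in both genotypes and 5 macrophage markers were present in every group. Between the genotypes of the preOCs, 2 of 5 macrophage markers were higher in Bap1LysM, Csf1r at 0.41 (adjusted p = 0.022) and Mertk at 1.26 (adjusted p = 0.0157), and the 5 summed to 3425 to 4441 CPM in Bap1flox and to 3634 to 5524 CPM in Bap1LysM. Of the osteoclast markers Dcstamp was lower, at -0.69 (adjusted p = 0.0211), and the other 9 did not pass. The 10 had a median log2 fold change of 0.23, and 8 of them were above 0. Neutrophil markers summed to 61.5 to 179 CPM in Bap1flox preOCs and to 170 to 615 CPM in Bap1LysM preOCs, with 6 of the 7 tested higher by edgeR's test and Ly6g below 1 CPM in every library. Of 6 B and plasma cell markers 3 were tested, and Jchain and Ighm were higher in Bap1LysM preOCs while the third gave -0.16. Ms4a1 and Cd79a stayed below 1 CPM, and the sums were 7.04 to 15.5 CPM against 11.1 to 48.3 CPM. Stromal markers summed to 169 to 1896 CPM in Bap1flox and to 95.9 to 1227 CPM in Bap1LysM preOCs, and all 5 adipocyte markers were below 1 CPM throughout. The part of these other cells in the differences below was not tested, and in bulk RNA fewer cells of a type and less RNA per cell cannot be told apart.

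On the deposited RPKM scale, which allows genes to be compared because it divides by gene length, Apoe stood far above the rest in BMMs, with group means of 5855 RPKM in Bap1flox and 3789 RPKM in Bap1LysM. In preOCs it was at 471 and 764 RPKM. Lipa, the lysosomal acid lipase, and Npc2, which hands cholesterol on within the lysosome, came next in every group, and in Bap1flox preOCs they stood at 363 and 348 RPKM. By the mean over the 4 groups the highest sterol synthesis gene was Fdps, the farnesyl diphosphate synthase, at 40.6 RPKM, although in Bap1LysM preOCs Hmgcs1 was at 24.1 and Fdps at 23.4 RPKM. The lowest means over the groups were those of Elovl6 at 1.64 and Hsd17b7 at 1.76 RPKM, and in Bap1flox preOCs Tm7sf2 was the lowest at 1.09 RPKM. These are orders of means and were not tested.

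In preOCs the genotypes differed in single genes of most roles rather than in a whole pathway. The exporter Abca1, the lysosomal cholesterol carrier Npc1 and Insig1 were higher in Bap1LysM preOCs, whereas the kinase Pmvk, the sterol reductase Lbr and the fatty acid enzymes Elovl6, Scd1 and Scd2 were lower. With p-values from edgeR's quasi-likelihood test, adjusted over all genes by the Benjamini-Hochberg method, 3 of 42 members were higher, beside 7.12% of the 12929 genes tested, and 5 were lower, beside 8.68% of all genes. At an unadjusted p under 0.05 there were 12 members, beside 30.5% of genes. Every Bap1LysM library lay above every Bap1flox library for 2 members (Abca1 and Npc1), beside 4.11% of genes, and below for 3 (Pmvk, Elovl6 and Scd2), beside 5.38%. The shares of members were near those of all genes.

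**Figure D1:**
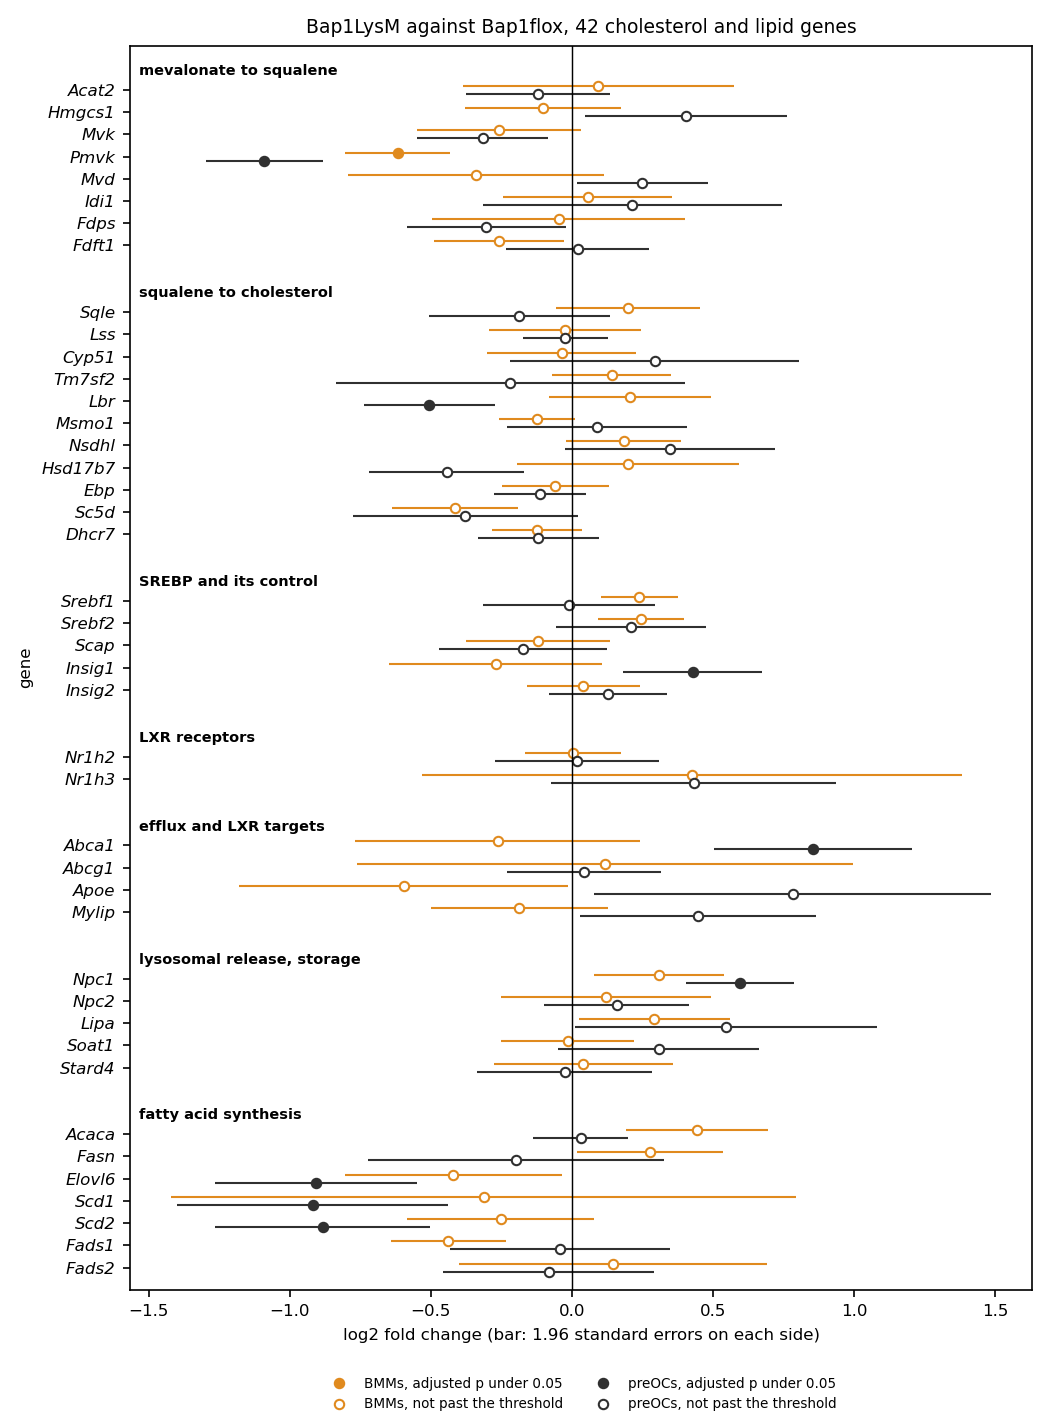
The horizontal axis gives the log2 fold change of Bap1LysM against Bap1flox for each of the 42 genes, in BMMs (orange) and preOCs (black), with bars for the 95% interval from the standard error and filled points for an adjusted p under 0.05. In preOCs 8 points are filled, from Pmvk at -1.09 to Abca1 at 0.86, and in BMMs only Pmvk is, at -0.62.

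The sterol synthesis genes had a median log2 fold change of -0.12 in preOCs, against -0.01 over all genes tested. Of the 19, none was higher and 2 were lower by the test. With the replicate number as a block, 2 were higher and 6 lower, beside 32.8% of all genes called. Hmgcs1 at 0.31 (adjusted p = 0.0341), Nsdhl at 0.27 (adjusted p = 0.0221), Mvk at -0.32 (adjusted p = 0.0246), Fdps at -0.37 (adjusted p = 0.0218), Hsd17b7 at -0.49 (adjusted p = 0.0116) and Sc5d at -0.44 (adjusted p = 0.0184) passed as well. A term for the library set in place of the block gave the same added calls but for Sc5d (adjusted p = 0.0559), beside 33.6% of all genes. Pmvk, phosphomevalonate kinase, which adds the second phosphate on the way from mevalonate to isoprenoids, ran from 14.4 to 15.5 CPM with a median of 14.8 in Bap1flox preOCs. The Bap1LysM preOCs held 8.28, 7.43, 6.86, 7.05 and 6.08 CPM. Every Bap1LysM library lay below every Bap1flox library, with library 1 the highest of the former. The log2 fold change was -1.09 ± 0.11 (SE, adjusted p = 0.000342), which was -0.94 within replicates 1 to 3, -1.19 within replicates 4 to 6 and -1.16 without library 1.

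Lbr, the lamin B receptor, which is also a sterol C14 reductase of the nuclear membrane, ran from 34.8 to 51.3 CPM (median 40.5) in Bap1flox preOCs. The Bap1LysM libraries held 35.1, 27.4, 26.3, 30.5 and 28.0 CPM. Only library 1 reached into the Bap1flox range, and the log2 fold change was -0.51 ± 0.12 (adjusted p = 0.0148). Its partner in the same reductase step, Tm7sf2, gave -0.22 ± 0.32 (adjusted p = 0.674), a value that depended on library 1. That library held 6.08 CPM of Tm7sf2, above the Bap1flox range of 2.54 to 4.90 CPM. The other Bap1LysM preOCs held 1.90 to 2.66 CPM. Leaving out library 1 alone did not bring Tm7sf2 past the threshold. Limma called it, as did edgeR once library 1 was dropped and the fit also allowed for the library sets. Hsd17b7, a ketoreductase of the later steps, came close to the threshold at -0.44 ± 0.14 (adjusted p = 0.0513).

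The other 15 synthesis genes spread to both sides of 0 without passing the test in the fit without a block, from Sc5d at -0.38 ± 0.20 to Hmgcs1 at 0.41 ± 0.18. Hmgcs1, HMG-CoA synthase at the entry to the pathway, stood at other levels in the library sets. In replicates 1 to 3 its Bap1flox libraries ran from 47.1 to 52.8 CPM and its Bap1LysM libraries were 53.5 and 55.6 CPM. In replicates 4 to 6 they ran from 65.1 to 72.1 CPM and from 91.9 to 107 CPM. Both sets had the Bap1LysM libraries on top, and the Bap1flox libraries of the sets did not overlap each other.

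Promoters of the synthesis genes are shown here because SREBPs bind them together with the CCAAT factor NF-Y. RefSeq windows of GRCm38.p6, from 250 bases before to 50 bases after each start, were at hand for 33 of the 42 members, and not for Fdps, Fdft1, Sqle, Abcg1, Npc1, Stard4, Scd1, Scd2 and Fads1. They were searched on both strands for TCACNCCAC (a sterol response element), for CCAAT, and for 2 copies of AGGTCA 4 bases apart (an LXR element). CCAAT letters occurred in 24 of 33 members and in 15 of 16 synthesis genes, against 41.1% of 27025 genes and 37.4% of 32851 windows, where a gene with several windows counted if any of them held the letters. The sterol element letters were found in Hmgcs1 alone, against 1.24% of windows, and the LXR element letters in none of the members and in 0.0152% of windows. A match is a description of letters and not a binding site, and a missing match says nothing of the factor. The 250 bases before the start follow for Hmgcs1, which holds both motifs, for Mvk, mevalonate kinase, with 5 CCAAT boxes, and for Pmvk, the synthesis gene with the largest difference. All are on the plus strand, Hmgcs1 at chr13:119690101-119690350, Mvk at chr5:114444019-114444268 and Pmvk at chr3:89454291-89454540. RefSeq gives Pmvk 2 windows, and this one lies before the gene start of 89459118 in the annotation used for the counts, while the other, at chr3:89459321-89459620, held none of the motifs. Capitals mark CCAAT or its reverse complement ATTGG and, in Hmgcs1, the sterol element.
Hmgcs1: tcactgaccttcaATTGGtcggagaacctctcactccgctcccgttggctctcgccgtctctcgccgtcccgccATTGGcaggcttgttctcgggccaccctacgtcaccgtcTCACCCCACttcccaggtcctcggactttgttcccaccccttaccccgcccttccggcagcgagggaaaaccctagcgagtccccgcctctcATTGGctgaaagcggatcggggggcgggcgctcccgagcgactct
Mvk: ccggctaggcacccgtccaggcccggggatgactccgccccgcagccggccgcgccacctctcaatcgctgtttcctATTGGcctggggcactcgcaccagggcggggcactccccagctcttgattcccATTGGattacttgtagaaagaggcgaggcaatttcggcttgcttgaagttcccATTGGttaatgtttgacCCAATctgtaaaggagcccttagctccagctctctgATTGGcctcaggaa
Pmvk: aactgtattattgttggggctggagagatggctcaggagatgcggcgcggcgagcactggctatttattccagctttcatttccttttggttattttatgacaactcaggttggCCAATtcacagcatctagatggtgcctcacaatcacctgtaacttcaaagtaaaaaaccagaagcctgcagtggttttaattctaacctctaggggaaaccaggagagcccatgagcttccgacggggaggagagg
This Pmvk window holds a single CCAAT box 136 bases before its RefSeq start, while the 3 boxes of Hmgcs1 in this stretch begin 237, 176 and 45 bases before the start and its sterol element 137 bases before it.

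Among the genes that govern SREBP, Insig1 was higher in Bap1LysM preOCs and the other 4 did not pass the test. Insig1, the endoplasmic reticulum anchor of Scap and itself a target of SREBP, ran from 38.0 to 46.7 CPM (median 41.9) in Bap1flox preOCs. Values in Bap1LysM preOCs were 47.2, 42.4, 71.0, 68.2 and 61.1 CPM. The high values were those of replicates 4 to 6, whereas library 2 lay within the Bap1flox range and library 1 just above it. The log2 fold change was 0.43 ± 0.13 (adjusted p = 0.0383), with 0.14 (adjusted p = 0.541) for replicates 1 to 3 on their own and 0.57 (adjusted p = 0.00222) for the later set. The call was lost when any of Bap1flox preOC 1 to 5 or Bap1LysM preOC 4 to 6 was left out, at values down to 0.35 (adjusted p = 0.112). Srebf2 differed by 0.21 ± 0.14, Srebf1 by -0.01 ± 0.15, Scap by -0.17 ± 0.15 and Insig2 by 0.13 ± 0.11. With the replicate block Srebf2 passed as well, at 0.23 (adjusted p = 0.0344).

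The efflux genes and LXR targets had a median log2 fold change of 0.62 in preOCs, with 1 of 4 past the test. Abca1, which loads cholesterol onto lipid-poor apolipoprotein, ran from 91.9 to 171 CPM (median 124) in Bap1flox preOCs. Abca1 in the Bap1LysM preOCs was at 275, 200, 261, 242 and 222 CPM. All 5 lay above the highest Bap1flox library, and the log2 fold change was 0.86 ± 0.18 (adjusted p = 0.00852). It was 0.80 within replicates 1 to 3, 0.93 within replicates 4 to 6 and 0.79 (adjusted p = 0.0124) without library 1.

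Apoe, the apolipoprotein that macrophages secrete with cholesterol, ran from 482 to 1613 CPM (median 844) in Bap1flox preOCs and was 2536, 620, 1781, 1603 and 1300 CPM in Bap1LysM preOCs. The groups overlapped, and the log2 fold change of 0.78 ± 0.36 did not pass (adjusted p = 0.164), while limma with voomWithQualityWeights gave 0.92 (adjusted p = 0.00557). Over 21 alternatives the value of Apoe ran from 0.29 to 1.08, past the threshold in 2 of them. Mylip ran from 18.1 to 31.3 CPM (median 19.9) against 31.6, 15.1, 38.2, 35.7 and 33.9 CPM. Library 2 alone lay below the Bap1flox range and the other 4 above it, with a log2 fold change of 0.45 ± 0.21 (adjusted p = 0.18), and of 0.70 (adjusted p = 0.0012) with limma. Abcg1, which exports cholesterol to mature lipoprotein, ran from 179 to 230 CPM (median 217) against 140, 247, 250, 251 and 224 CPM. Library 1 was the lowest of all 11, and the log2 fold change was 0.04 ± 0.14. Without library 1 the median of the list was 0.48, and without library 2 Apoe, Mylip and Lipa passed the test as well, Apoe at an adjusted p of 0.0492.

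Of the receptors, Nr1h3 ran from 22.3 to 39.3 CPM (median 31.5) in Bap1flox preOCs and was 80.4, 33.0, 38.7, 34.3 and 29.6 CPM in Bap1LysM preOCs. Library 1 lay far above any other, so that the log2 fold change of 0.43 ± 0.26 (adjusted p = 0.284) became 0.07 without it. Nr1h2 differed by 0.02 ± 0.15.

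Of the genes of lysosomal release and storage, Npc1 was higher and 4 did not pass the test. Npc1, the membrane protein through which cholesterol leaves the lysosome, ran from 218 to 287 CPM (median 251) in Bap1flox preOCs. Values in the Bap1LysM libraries were 405, 307, 430, 401 and 398 CPM. All 5 lay above the Bap1flox range, library 2 nearest to it. The log2 fold change was 0.60 ± 0.10 (adjusted p = 0.00261), against 0.63 and 0.54 in the earlier and later library sets alone. Lipa gave 0.55 ± 0.27 (adjusted p = 0.2), Soat1, which esterifies cholesterol for storage, 0.31 ± 0.18, Npc2 0.16 ± 0.13 and Stard4, a cytosolic sterol carrier, -0.03 ± 0.16. Neutrophil markers rose in the same comparison, as did Csf1r and Mertk of the macrophage markers, and their part in the values of Abca1 and Npc1 was not tested.

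In fatty acid synthesis the enzymes that lengthen and desaturate palmitate were lower, while the carboxylase and the synthase that make it did not pass edgeR's test. Elovl6, which extends palmitate to stearate, ran from 7.07 to 10.9 CPM (median 8.68) in Bap1flox preOCs. The Bap1LysM values were 6.24, 4.501, 3.62, 3.67 and 5.95 CPM. The groups did not overlap, and the log2 fold change was -0.91 ± 0.18 (adjusted p = 0.00697). Scd1, a stearoyl-CoA desaturase, ran from 6.76 to 12.5 CPM (median 9.33) against 3.33, 7.92, 5.44, 3.88 and 4.68 CPM. Library 2 alone reached the Bap1flox range, with a log2 fold change of -0.92 ± 0.25 (adjusted p = 0.0263). This call was lost without any one of Bap1flox preOC 1, 2 or 3 or Bap1LysM preOC 4, 5 or 6, at adjusted p-values up to 0.0773.

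Scd2, the desaturase with the higher RPKM of the pair, ran from 91.8 to 189 CPM (median 125) in Bap1flox preOCs. Scd2 in the Bap1LysM preOCs was at 48.1, 81.2, 69.7, 70.6 and 80.8 CPM. All 5 lay below the Bap1flox range, library 1 the lowest, and the log2 fold change was -0.88 ± 0.19 (adjusted p = 0.0107). It was -1.19 within replicates 1 to 3, -0.56 within replicates 4 to 6 and -0.78 (adjusted p = 0.0137) without library 1. Within the same sets, Elovl6 gave -0.75 and -1.01, and Scd1 gave -1.01 and -0.72. Acaca, the acetyl-CoA carboxylase, differed by 0.03 ± 0.09, Fasn, the fatty acid synthase, by -0.20 ± 0.27, and the desaturases Fads1 and Fads2 by -0.04 ± 0.20 and -0.08 ± 0.19. Limma with voomWithQualityWeights gave Fasn -0.60 (adjusted p = 0.0134), past the threshold.

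**Figure D2:**
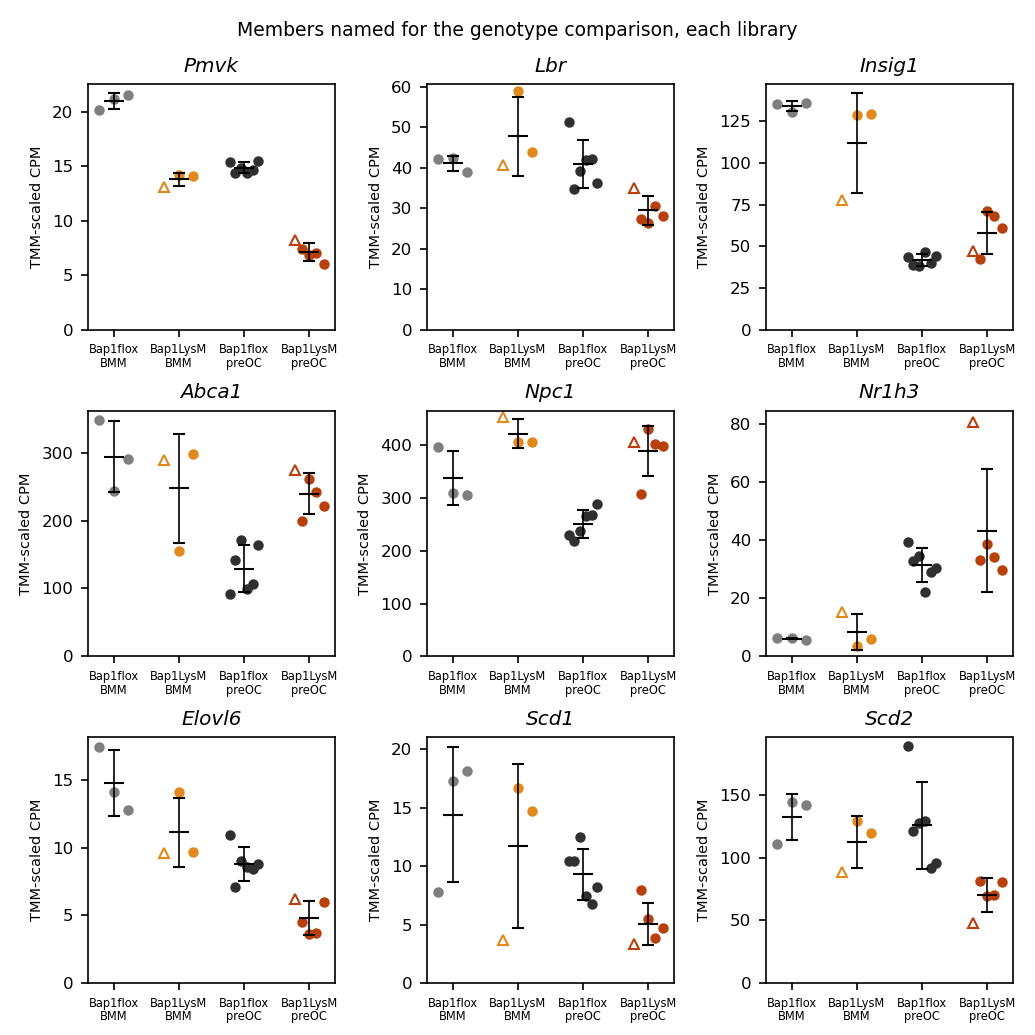
Each panel gives the TMM-scaled CPM of 1 gene on a vertical axis that starts at 0, with a point for each library of the 4 groups, an open triangle for the libraries labelled Bap1LysM 1, and the mean with its SD. Pmvk, Elovl6 and Scd2 lie lower and Abca1 and Npc1 higher in all 5 Bap1LysM preOC libraries, and the high Nr1h3 value of 80.4 CPM is library 1.

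How many members passed depended on the handling of the library sets. Within replicates 4 to 6, with 3 libraries a genotype, 14 members passed, beside 33.8% of all genes, and within replicates 1 to 3, with 3 against 2, none did by edgeR, nor did any other gene. At an unadjusted p under 0.05 that set gave 6 members and 2336 genes. With the replicate number as a block, 15 passed, beside 32.8% of genes, and without library 1 there were 12, beside 24.0%, which added Hmgcs1, Mvk, Mvd and Hsd17b7 to the 8. Limma with voomWithQualityWeights, the study's method, called 21 members, 11 higher and 10 lower, beside 54.9% of genes. It kept the 8 and added Hmgcs1, Mvk, Mvd, Cyp51, Tm7sf2, Nsdhl and Hsd17b7 of the synthesis genes, and Scap, Apoe, Mylip, Lipa, Soat1 and Fasn. Upper-quartile factors moved the split of all called genes from 921 higher of 2043 to 699 higher of 2102, and that of the members from 3 higher and 5 lower to 2 and 7.

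In BMMs, before RANKL, 1 of the 42 genes passed the test between genotypes. Pmvk was 20.1, 21.2 and 21.6 CPM in Bap1flox and 13.1, 14.2 and 14.1 CPM in Bap1LysM BMMs. The groups did not overlap, and the log2 fold change was -0.62 ± 0.09 (edgeR, adjusted p = 0.0231). It was the 1 member lower, beside 4.01% of 13028 genes, and none was higher, beside 1.31%. At an unadjusted p under 0.05 there were 7 members, beside 26.2% of genes. DESeq2 called 6 members, beside 15.9% of genes, and limma with voomWithQualityWeights 4, beside 13.6%. With the replicate number as a block 4 members passed, beside 16.2% of genes, namely Pmvk, Npc1, Fads1 and the sterol desaturase Sc5d. Without library Bap1LysM BMM 1 no member passed, beside 2.84% of genes, and Pmvk gave -0.58 (adjusted p = 0.0529). Its call was likewise lost when Bap1flox BMM 2 or 3 or Bap1LysM BMM 2 was left out, at -0.61, -0.59 and -0.64. In these fits 7, 4 and 84 of all genes were called. Ranges lay apart for 6 members above, beside 17.2% of genes, and for 7 below, beside 16.9%, a share like that of all genes.

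The members named in preOCs stood as follows in BMMs. Abca1 was 348, 243 and 291 CPM in Bap1flox and 289, 155 and 298 CPM in Bap1LysM, with a log2 fold change of -0.26 ± 0.26. Npc1 was 396, 309 and 305 CPM against 452, 405 and 405 CPM, so that all 3 Bap1LysM libraries were above, at 0.31 ± 0.12 (adjusted p = 0.158). Scd2 was 111, 145 and 142 CPM against 88.9, 129 and 119 CPM, at -0.25 ± 0.17. Insig1 was 135, 130 and 136 CPM in Bap1flox and 77.6, 128.8 and 129.5 CPM in Bap1LysM, low in library Bap1LysM BMM 1. Scd1 was 7.79, 17.3 and 18.1 CPM in Bap1flox and 3.71, 16.7 and 14.7 CPM in Bap1LysM, low in the library numbered 1 of both genotypes. Insig1 and Scd1 differed by -0.27 ± 0.19 and -0.31 ± 0.57. Lbr gave 0.21 ± 0.15, with the sign opposite to that in preOCs. Elovl6 gave -0.42 ± 0.20 and Nr1h3 0.43 ± 0.49, and none of these passed. The median log2 fold change was -0.05 for sterol synthesis, -0.22 for efflux and -0.25 for fatty acid genes. Without library 1 these were 0.08, -0.45 and 0.11, so that the sign of the first and the third rested on that library.

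RANKL lowered most of the sterol synthesis genes in Bap1flox cells. The comparison used replicates 1 to 3, which have both BMMs and preOCs, in a fit over 11 libraries. By edgeR's test 28 of 42 members were lower, beside 28.7% of 13637 genes, and 4 were higher, beside 29.4%. Of the 19 synthesis genes 15 were lower and none higher, with a median of -0.78 against -0.03 over all genes. Cyp51, the lanosterol demethylase, fell by 1.37 ± 0.22 on the log2 scale (adjusted p = 0.000514), and Fdft1, squalene synthase, fell by 1.22 ± 0.15 (adjusted p = 0.000139). Acat2, Mvd, Lbr and Hsd17b7 did not pass, at -0.27, -0.50, 0.03 and -0.03. The RANKL and genotype comparisons share libraries and are not independent.

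Outside synthesis, Apoe and Mylip of the LXR targets fell most. All 5 macrophage markers fell in the same comparison, with a median of -1.61 and sums of 7803 to 9765 CPM in Bap1flox BMMs, against the preOC sums given above, and their part in these falls was not tested. Apoe was 10342, 12093 and 13296 CPM in Bap1flox BMMs and 537, 828.5 and 859 CPM in the preOCs of the same replicates. The log2 fold change was -4.00 ± 0.52 (adjusted p = 0.000155), with no overlap. Mylip went from 90.1, 85.0 and 80.7 CPM to 19.8, 18.1 and 19.3 CPM, at -2.16 ± 0.25 (adjusted p = 8.34e-05). Abca1, at the CPM given above for BMMs, was 91.9, 142 and 171 CPM in preOCs, at -1.12 ± 0.29 (adjusted p = 0.00765). Within the same list Abcg1 rose, from 76.2, 41.4 and 47.2 CPM to 179, 192 and 230 CPM, at 1.87 ± 0.42 (adjusted p = 0.00378). The targets therefore split by direction, 3 down and 1 up.

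The receptors split as well. Nr1h3 rose from 6.38, 6.24 and 5.77 CPM to 39.3, 32.8 and 34.5 CPM, at 2.54 ± 0.49 (adjusted p = 0.00148), whereas Nr1h2 was lower at -0.66 ± 0.09. Insig1 was 135, 130 and 136 CPM in BMMs and 43.8, 38.9 and 38.0 CPM in preOCs, at -1.73 ± 0.17 (adjusted p = 4.28e-05). Srebf2 was lower at -0.52 ± 0.11, while Srebf1, Scap and Insig2 did not pass, at -0.01, -0.13 and 0.05. Of lysosomal and storage genes, Lipa, Soat1, Stard4 and Npc1 were lower, at -1.26, -1.12, -1.16 and -0.56, and Npc2 gave 0.02 ± 0.19.

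Of the fatty acid genes, Acaca and Fasn rose while Fads1, Fads2 and Elovl6 fell. Acaca rose from 30.3, 33.5 and 31.7 CPM to 46.0, 41.1 and 43.2 CPM, at 0.45 ± 0.11 (adjusted p = 0.00603). Fasn rose from 114, 128 and 115 CPM to 178, 151 and 152 CPM, at 0.43 ± 0.12 (adjusted p = 0.0138), a call lost without Bap1flox preOC 1 at 0.35 (adjusted p = 0.0559). Neither gene overlapped between BMMs and these preOCs, but Fasn in the Bap1flox preOCs of replicates 4 to 6, which have no BMMs, was 94.98, 108 and 90.0 CPM, below all 3 BMM libraries. Fads1, the delta-5 desaturase of polyunsaturated fatty acids, went from 242, 200 and 210 CPM to 80.6, 57.0 and 59.9 CPM, at -1.72 ± 0.25 (adjusted p = 0.000324). Fads2 and Elovl6 were lower at -1.47 and -0.71, the latter not without Bap1flox BMM 1, preOC 2 or preOC 3, and Scd1 and Scd2 did not pass at -0.37 and 0.14.

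**Figure D3:**
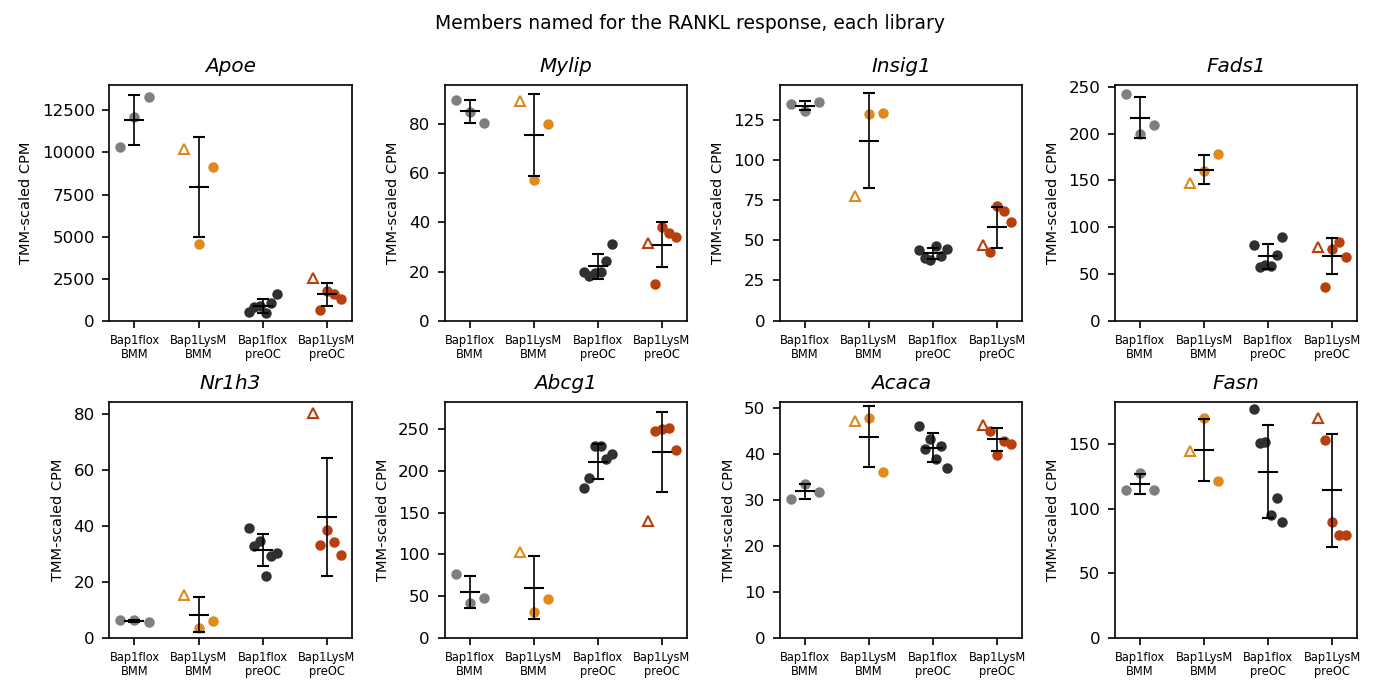
Each panel gives the TMM-scaled CPM of 1 gene in every library on an axis from 0, with the mean and its SD per group and an open triangle for the libraries labelled Bap1LysM 1. Apoe, Mylip, Insig1 and Fads1 are lower and Nr1h3 and Abcg1 higher in the preOCs, while Fasn in Bap1flox preOCs spans 90.0 to 178 CPM.

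In Bap1LysM cells, with 3 BMM and 2 preOC libraries, RANKL lowered 25 members, beside 17.7% of genes, and raised 2, beside 21.2%. Again 15 of 19 synthesis genes were lower and none higher, with a median of -0.81 against 0.01 over all genes. Without Bap1LysM preOC 2, the library with the lowest synthesis average, 1 preOC library was left. Fewer of the 19 then passed, with a median of -0.69. With limma 11 passed, beside 2937 of 13637 genes called. Fdps fell by 1.54 ± 0.28 on the log2 scale (adjusted p = 0.00211), beside -1.08 ± 0.24 in Bap1flox cells. Lbr, at -0.61 ± 0.20 (adjusted p = 0.0348), passed here and not in Bap1flox cells, but not with limma nor without Bap1LysM BMM 2 or Bap1LysM preOC 2. Nsdhl, a dehydrogenase of the sterol nucleus, passed there and not here, and its call was lost without Bap1flox BMM 1, preOC 2 or preOC 3. The difference between genotypes had adjusted p-values of 0.607 for Fdps, 0.373 for Lbr and 0.822 for Nsdhl.

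Apoe was 10180, 4573 and 9130 CPM in Bap1LysM BMMs and 2536 and 620 CPM in preOCs 1 and 2, at -2.33 ± 0.56 (adjusted p = 0.00902). Library 1 was the highest of both, and without both libraries numbered 1 the log2 fold change was -3.46, without the preOC library 1 it was -3.68 and without the preOC library 2 it was -1.65. Each of these fits leaves 1 Bap1LysM preOC library. Mylip went from 89.7, 57.2 and 80.1 CPM to 31.6 and 15.1 CPM, at -1.69 ± 0.28 (adjusted p = 0.00148), or at -2.32 without the preOC library 1. Abca1, at 275 and 200 CPM after RANKL, gave -0.06 ± 0.32 (adjusted p = 0.903). Of the 5 macrophage markers 4 fell in these cells, with a median of -1.07, and their part in the falls was not tested.

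Nr1h3 rose from 15.4, 3.57 and 6.08 CPM to 80.4 and 33.0 CPM, at 2.77 ± 0.52 (adjusted p = 0.00257), with library 1 the highest in both states and values of 1.99 without the preOC library 1 and 3.56 without the BMM library 1. Abcg1 was 103, 30.8 and 46.7 CPM in BMMs and 140 and 247 CPM in preOCs, at 1.69 ± 0.45 (adjusted p = 0.0146). It was lost without Bap1LysM BMM 3, at 1.54 (adjusted p = 0.0537). The call was also lost without Bap1LysM preOC 2, at 1.22, and the value was 2.68 without both libraries numbered 1. Insig1 and Fads1 gave -1.32 ± 0.20 (adjusted p = 0.000861) and -1.49 ± 0.29 (adjusted p = 0.00332), where Fads1 was -2.17 without preOC library 1, -2.23 without both libraries numbered 1 and -1.03 without preOC library 2. Acaca and Fasn, which rose in Bap1flox cells, gave 0.06 ± 0.12 and 0.16 ± 0.14 here. Without preOC 1, preOC 2 or both libraries numbered 1, only 1 Bap1LysM preOC library was left. It was assumed to vary like the other groups, and the values of these fits have no replicate in that group. Fewer members passed without preOC 2 than with all libraries.

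**Figure D4:**
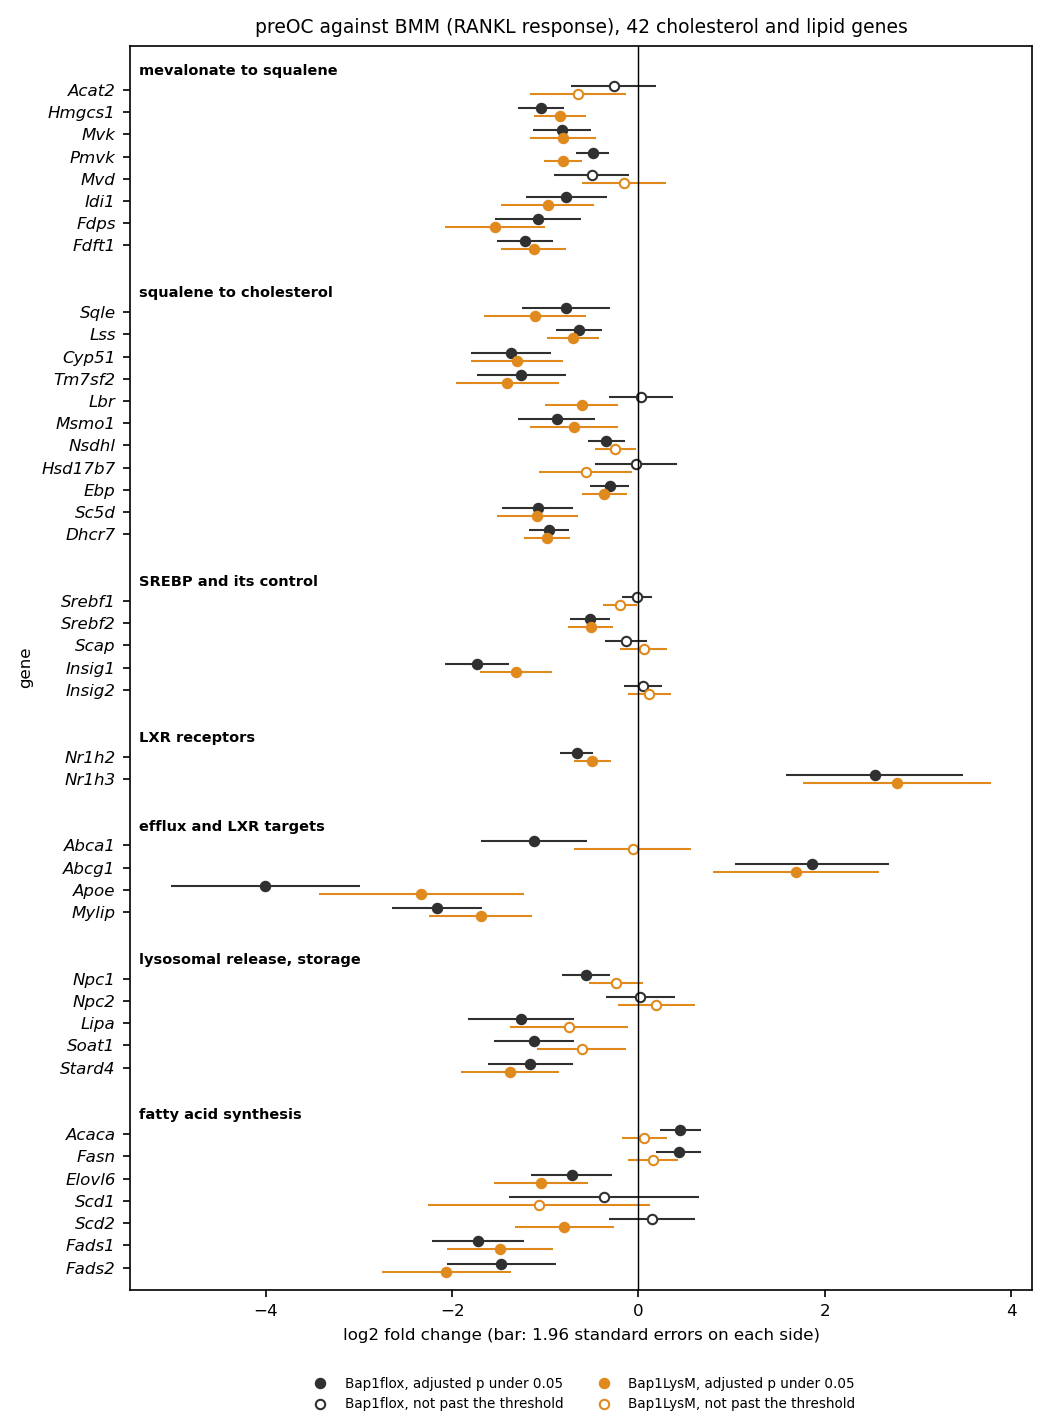
The horizontal axis gives the log2 fold change of preOCs against BMMs for each of the 42 genes in Bap1flox (black) and Bap1LysM cells (orange), with bars for the 95% interval from the standard error and filled points for an adjusted p under 0.05. Most synthesis genes lie left of 0 in both genotypes, Apoe is the lowest at -4.00 and -2.33, and Nr1h3 the highest at 2.54 and 2.77.

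Whether the RANKL response differed between genotypes was tested by the interaction term on the same 11 libraries. By edgeR's test no member differed, with 0% of 13637 genes called higher and 0% lower. At an unadjusted p under 0.05 there were 1718 genes and 6 members, limma with voomWithQualityWeights called no gene, and DESeq2 called 113 genes and no member. The largest member values were Apoe at 1.67 ± 0.68 (adjusted p = 0.367), Abca1 at 1.06 ± 0.43 (adjusted p = 0.362) and Scd2 at -0.94 ± 0.36 (adjusted p = 0.352). The value of Apoe was 0.54 without both libraries numbered 1, 0.32 without Bap1LysM preOC 1 and 2.35 without Bap1LysM preOC 2. That of Abca1 was 0.94, 0.82 and 1.27 in the same order, and each of these fits leaves 1 Bap1LysM preOC library. A fit over all 17 libraries with the library set as a term called 4 members, beside 10.4% of 13810 genes, namely Abca1 at 1.15 (adjusted p = 0.0386), Insig1, Pmvk and Lbr.

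Synthesis was set against efflux by averaging log2 CPM in each library over the 19 synthesis genes and over the 4 efflux genes and LXR targets, as a description without a test. The latter average is called efflux here although it includes Mylip, a ubiquitin ligase. In Bap1flox preOCs the difference of the averages, synthesis minus efflux, ran from -3.19 to -2.36 with a median of -2.93. In Bap1LysM preOCs it was -3.59, -3.32, -3.67, -3.52 and -3.38. All 5 lay below the Bap1flox preOCs, and the scaling factors cancel in this difference. The efflux list did not move as 1, with log2 fold changes of 0.86, 0.78, 0.45 and 0.04 for Abca1, Apoe, Mylip and Abcg1. Abca1 by itself lay apart between the genotypes, and how often other pairs of lists would lie apart was not tested. The synthesis average ran from 4.16 to 4.502 against 3.87 to 4.40, and the efflux average from 6.85 to 7.69 against 7.20 to 8.01, so that each list alone overlapped.

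The BMMs overlapped in this measure, with -3.64, -3.30 and -3.43 in Bap1flox and -3.94, -2.43 and -3.36 in Bap1LysM. After RANKL the Bap1flox libraries of replicates 1 to 3 stood at -2.36, -2.99 and -3.16, above all 3 Bap1flox BMM libraries. The preOCs of Bap1LysM replicates 1 and 2 lay within the range of their BMMs.

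**Figure D5:**
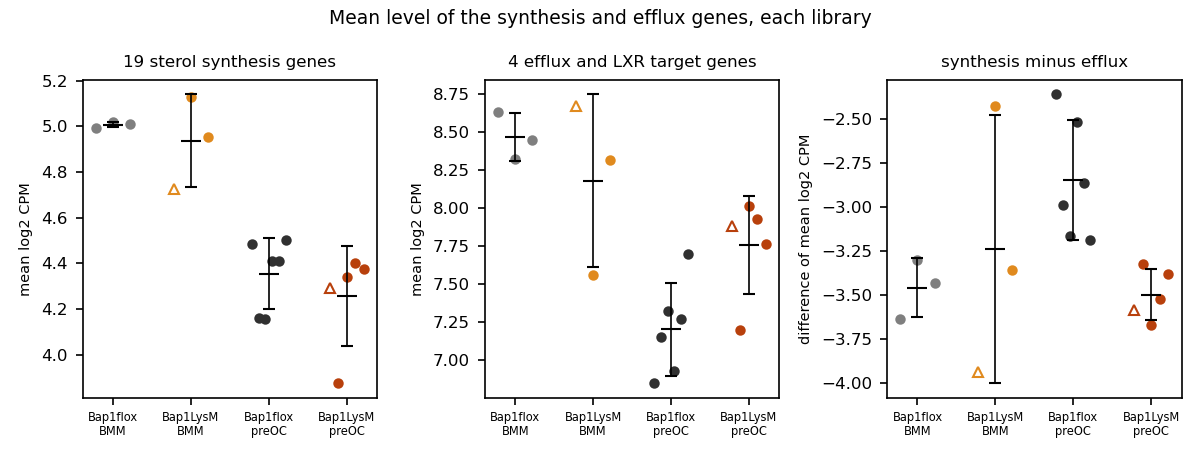
The vertical axes give the mean log2 CPM of the 19 synthesis genes, that of the 4 efflux genes and LXR targets, and their difference, with a point for each library, an open triangle for the libraries labelled Bap1LysM 1, and the mean with its SD per group. In the right panel the Bap1LysM preOCs lie between -3.67 and -3.32, all below the Bap1flox preOCs, and the BMMs of the genotypes overlap.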

How the data were processed

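RNA-seq of 17 cultures was analysed, with the group of each taken from its label. Per the labels and the study's methods, the authors aligned reads to GRCm38 with STAR 2.5.1a and used featureCounts 1.4.6-p5 to count the reads that had 1 alignment and fell on 1 gene. Whether strand was used in counting is not given in the sources used here. The deposited counts are whole numbers without normalization. The CPM values the authors deposited were checked to equal count over library total, and RPKM as deposited to be CPM divided by gene length. Here 355 ribosomal RNA genes were left out, and 1134 of 41388 identifiers had no symbol in the GENCODE annotation used.

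Tests used edgeR 4.0.16 in R 4.3.3, with TMM factors, the quasi-likelihood test and Benjamini-Hochberg adjustment over all genes, at a threshold of 0.05. The filter kept genes whose CPM exceeded 1 in 4 or more of 11 preOC libraries, 2 of 6 BMM libraries, or 2 of 11 libraries of the RANKL fit. Log2 CPM used a prior count of 2, and standard errors were derived from the F statistic. Between cultures, the biological coefficient of variation came to 0.274 (preOCs) and 0.207 (BMMs), so the spread between cultures, more than counting error, set the precision. The labels do not say that replicates came from separate animals, and the study calls the preOC samples biologically independent.

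Values in each library are given for members past the threshold with a fold of at least 1.5 between genotypes, for the largest genotype difference in preOCs of each role, and for the 4 largest RANKL responses in each direction in Bap1flox cells. The members and all gene lists were chosen with earlier results of these data known. The alternatives were DESeq2 1.42.0, limma 3.58.1 with voomWithQualityWeights (the study's method), other scaling factors, no filter, the replicate number as a block, the library set as a term or apart, all 17 libraries, and each library left out. The tests were tested on simulated counts. Figures used matplotlib 3.10.9.

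Pairing was checked through deviations from the group mean, which for libraries of 1 number correlated at 0.56, 0.69, 0.34, 0.60 and 0.43 in preOCs, and at 0.40, 0.32, -0.014, -0.15 and 0.013 after centring within each library set. In BMMs they correlated at 0.49, 0.30 and 0.34. Results with the replicate block are therefore given beside the others, with the pairing taken from the data and not from a label, and in preOCs much of it followed the library set.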

Additional observations from a re-analysis of the deposited data

Results flagged for a closer look

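In 42 groups of 5 or 6 preOC libraries, covering the named members, the list averages, Bap1 and Lyz2, a single library stood far from the others 6 times, where about 1 in 20 groups would do so by chance. Lyz2 was at 6715 deposited CPM in Bap1LysM preOC 1, against 13.6 to 39.0 CPM in the other 4. The same library held the highest Nr1h3 of its group at 80.4 CPM and the lowest Abcg1 at 140 CPM. Bap1LysM preOC 2 was the lowest of its group for Mylip, at 15.1 CPM, and for Npc1, at 307 CPM. Among the list averages, the same library had the lowest synthesis average of its group, at 3.87 mean log2 CPM.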

How the results depend on the processing

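In preOCs the 8 members called became 21 with limma's voomWithQualityWeights, 15 with the replicate block, 14 with a term for the set, 14 in replicates 4 to 6 alone and 0 in replicates 1 to 3 alone, while the share of all genes went from 15.8% to 54.9%, 32.8%, 33.6%, 33.8% and 0%. With the set as a term and Bap1LysM preOC 1 left out, chosen after seeing the data, there were 16, beside 39.0% of genes. Leaving out each library gave 6 to 12, beside 8.32% to 24.0%. In BMMs the 1 member called became 6 with DESeq2, 4 with voomWithQualityWeights and 4 with the replicate block, where the share of genes went from 5.32% to 15.9%, 13.6% and 16.2%. With a library left out 0 to 2 members were called, beside 0.0311% to 5.83% of genes. The interaction called 0 members in every setting but the fit over all 17 libraries, which called 4, beside 10.4% of genes. The replicate block moved no count of the RANKL comparisons by over 1.5 times. Of 41 gene results recomputed, 5 changed sign. The RANKL response of Acaca in Bap1LysM cells ran from -0.057 without Bap1LysM BMM 3 to 0.12 without Bap1LysM BMM 1. The others were genotype differences in preOCs, none past the threshold where the sign changed. Acaca gave -0.051 with voomWithQualityWeights, -0.030 with upper-quartile factors and -0.0042 to 0.068 with a library left out. Fads1 gave 0.17 with voomWithQualityWeights, 0.036 in replicates 4 to 6 alone and -0.12 to 0.11 with a library left out. Abcg1 gave -0.013 with upper-quartile factors, -0.067 in replicates 1 to 3 alone and -0.0093 to 0.16 with a library left out. Fasn gave 0.0011 in replicates 1 to 3 alone and, past the threshold, -0.60 with voomWithQualityWeights. In preOCs the call of Insig1 was lost in 11 of 21 alternatives, its value over all 21 running from 0.14 to 0.65, and that of Scd1 in 7, while Pmvk, Lbr, Abca1, Npc1, Elovl6 and Scd2 lost theirs in 1 of 21 each, replicates 1 to 3 alone. The cause of these shifts was not tested. With 2 Bap1LysM preOC libraries beside BMMs, and 1 of them standing apart, the RANKL response of that genotype and the interaction rest on little replication.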

Other observations

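A further 57 genes of the same pathways, from a list written with earlier results known, were read beside the members. In preOCs 52 were tested, and 5 were higher and 2 lower in Bap1LysM, beside 7.12% and 8.68% of all genes. Vldlr, a receptor for triglyceride-rich lipoprotein, ran from 8.50 to 12.0 CPM in Bap1flox preOCs and from 23.8 to 65.3 CPM in Bap1LysM preOCs, at 2.27 ± 0.24 (log2 fold change ± SE, edgeR, adjusted p = 0.000389). It was also higher in BMMs, at 12.8 to 19.8 CPM against 4.88 to 6.38 CPM (1.47 ± 0.20, adjusted p = 0.0193). Rxra, the partner receptor of LXR, was higher in preOCs at 1.04 ± 0.19 (adjusted p = 0.00479), with 74.2 to 174 CPM against 56.3 to 81.6 CPM. Me1, malic enzyme, which supplies NADPH, was higher in preOCs at 0.56 ± 0.12 and in BMMs at 0.44 ± 0.09. Ggps1, which makes geranylgeranyl diphosphate, was higher at 0.50. Elovl5, an elongase of polyunsaturated fatty acids, was lower at -0.70 ± 0.14 (adjusted p = 0.00689), as was Fntb, a farnesyltransferase subunit, at -0.50. In BMMs 2 of 52 were higher and 1 lower, beside 1.31% and 4.01% of all genes. The genes named here were picked after their values were seen.

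RANKL lowered 23 and raised 7 of 54 tested genes of this list in Bap1flox cells, beside 28.7% and 29.4% of all genes. It lowered 18 and raised 5 in Bap1LysM cells, beside 17.7% and 21.2%. In Bap1flox cells the largest falls were in Apoc1 at -4.43, Cyp27a1, which makes an LXR ligand, at -3.51, and Apoc2 at -3.08. Acss2, which makes acetyl-CoA from acetate, was lower at -1.94. Elovl7 and Pdss1, a subunit of the enzyme that makes the side chain of coenzyme Q, were higher at 2.16 and 2.12.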
